A study of Mus musculus with 4 samples.

Results

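Glycolysis and the tricarboxylic acid (TCA) cycle were followed through 36 listed genes in the hypothalamus of mice fed a western diet (WD). The list holds 4 genes of glucose transport and the lactate shuttle, 16 of glycolysis including the enolases *Eno1*, *Eno1b* and *Eno2*, 5 of pyruvate entry into mitochondria and 11 of the TCA cycle. They were taken by gene symbol from 16339 genes, after the RefSeq transcripts of each symbol were summed, and all 36 were among the 14344 genes with enough counts to be tested. RNA sequencing was carried out on 2 libraries from wild-type male mice (WT WD) and 2 from male Tas1r3-/- mice (Tas1r3-/- WD). Tas1r3 encodes the subunit shared by the sweet and the umami taste receptors. Both groups were on the C57BL/6 strain, the WT mice being littermates of similar age and weight, and both received the 60% fat chow with a 30% sucrose drink for 12 weeks. The mice were 8 weeks old when the diets began. The mutant allele is Tas1r3tmCSZ, carried in every tissue and crossed back to C57BL/6 for at least 7 generations, and both genotypes came from heterozygous parents. The comparison asked which transcripts differ in the hypothalamus when TAS1R3 is missing under this diet.

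Glycolysis splits glucose into pyruvate in the cytosol and yields ATP and NADH. Pyruvate is reduced to lactate by lactate dehydrogenase, or enters mitochondria, is converted to acetyl-CoA by the pyruvate dehydrogenase complex and is oxidized in the TCA cycle. In brain, astrocytes are the more glycolytic cells and can export lactate, neurons oxidize much of their fuel in mitochondria, and enolase 2 is the neuronal form of enolase, the enzyme that turns 2-phosphoglycerate into phosphoenolpyruvate.

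*Eno1* and *Eno1b* are shown first because the largest differences among the 36 genes were between these near-identical copies. Each has a coding sequence of 1302 bases, and an alignment of them (GENCODE annotation of GRCm39) held 8 base differences, an identity of 99.4%. The first 725 coding bases were identical. *Eno2* was 74.9% identical to either of them over the aligned coding sequence. A stretch of *Eno1* exon 8 that holds 3 of the 8 positions is printed below from GRCm39, chr4:150331053-150331142, plus strand, coding bases 694 to 783, with the positions that differ from *Eno1b* in capitals.
Eno1, exon 8: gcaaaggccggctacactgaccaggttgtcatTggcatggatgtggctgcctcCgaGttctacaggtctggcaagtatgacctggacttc
Only a read across 1 or more of the 8 positions, or across sequence outside the coding region that differs, separates the copies. Of the 150-base windows of the coding sequence, 58.5% held no difference, and of the 50-base windows 80.7%. The length of the reads is not given in the sources used here. The separate values of *Eno1* and *Eno1b* are therefore uncertain, and their sum is given beside them.

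**Figure D1:**
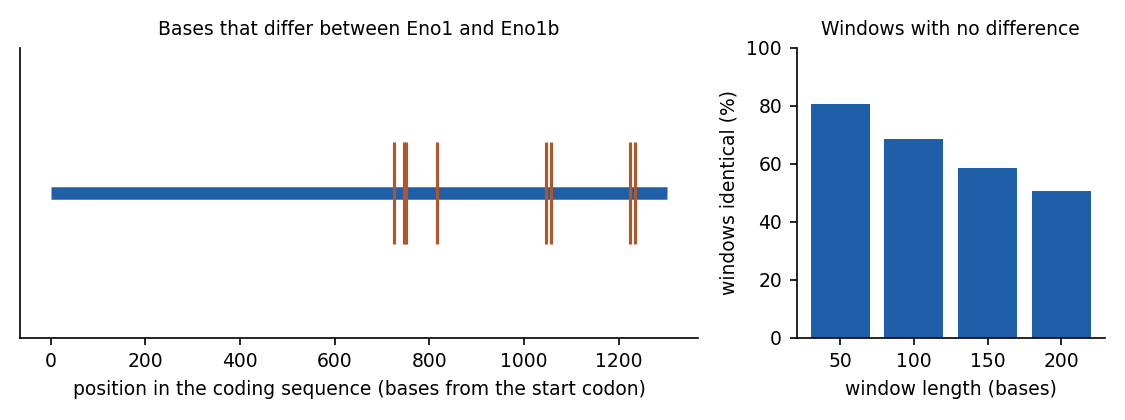
Left, the 1302-base coding sequence of Eno1 (bases from the start codon) with a line at each of the 8 bases that differ in Eno1b. Right, the percent of windows of 50, 100, 150 and 200 bases that hold no difference: 80.7%, 68.6%, 58.5% and 50.5%.

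*Gapdh*, the glyceraldehyde-3-phosphate dehydrogenase gene, is a member for which the study lists quantitative PCR primers. The text of the paper reports no level of *Gapdh* itself. The primers are printed because they place that assay within the gene. The forward primer lies across exons 2 and 3, the reverse primer in exon 3, and their product is 123 bases (GRCm39, chromosome 6).
Gapdh forward: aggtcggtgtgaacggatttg
Gapdh reverse: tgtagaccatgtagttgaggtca
The *Gapdh* transcript matched 37 other places in the genome, counting matches of at least 200 bases with at least 97% identity, which covered 88.6% of it. By the same count 11 of the 36 genes had a match elsewhere and 25 had none. *Pgam1* had 4, *Pgk1* 3, *Eno1* and *Eno1b* 2 each, and *Ldhb*, *Gpi1*, *Tpi1*, *Pkm* and *Mpc1* 1 each. *Ogdh* had 97 matches over only 3.09% of its transcript, the longest of 207 bases. Estimated counts of genes with long copies are uncertain to the extent that reads were shared with those copies.

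The libraries held 5801550 and 6155764 estimated counts of named genes for the WT WD pair and 6180137 and 5728729 for the Tas1r3-/- WD pair, and 3 counts, the limit that a count of 0 allows, were 0.485 to 0.524 CPM, the usual counts scaled to library size. This limit covers counting error only. *Tas1r3* had 35.3 and 27.0 estimated counts in the WT WD libraries and 7.0 and 7.01 in those of Tas1r3-/- WD, with a log2 fold change of -2.13 (SE 0.42, adjusted p = 0.756 by edgeR's quasi-likelihood test), and of -2.33 when the library labelled WT WD replicate 2 was left out. The library labelled WT WD replicate 2 went against its tissue label. The summed level of 12 hypothalamic markers was 46.96 CPM there and 1921 CPM in WT WD replicate 1, against 1391 and 1349 CPM in Tas1r3-/- WD, and *Nkx2-1* was at 0 in that library alone. Its 6 thalamic markers summed to 1425 CPM (147 to 270 CPM in the other 3 libraries), and its choroid plexus gene *Ttr* was at 678 CPM (0.70 to 4.29 CPM). Not every marker went this way. *Kl*, also of choroid plexus, was at 12.0 CPM there, 12.2 CPM in WT WD replicate 1, and 9.64 and 5.61 CPM in Tas1r3-/- WD. The thalamic marker *Cabp7* was lowest there, at 25.4 CPM (42.9 to 54.2 CPM), as was the neuronal marker *Map2*, at 652 CPM (1069 to 1295 CPM). The sum of 4 red blood cell markers was 1933 CPM in that library and 375 to 758 CPM in the others. The sum of 8 neuronal markers was 5952 CPM in that library and 4457 to 4949 CPM in the others, and that of 7 astrocyte markers was 2268 CPM against 2441 to 2656 CPM. Log2 fold changes of the members, step medians and counts are given with and without it, and since every library's value is printed, the rest can be read without it too. Levels below are CPM scaled by TMM factors, in the order WT WD replicates 1 and 2, then Tas1r3-/- WD replicates 1 and 2. In bulk tissue, fewer cells of a type and less RNA per cell cannot be told apart. The labels do not say that the libraries of a group came from separate mice, so p-values measure the spread between these libraries.

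Of all genes tested, 0% were called by edgeR's quasi-likelihood test (0 of 14344, a call needing 0.05 as the adjusted p and 1.5-fold as the size), while 772 (5.38%) had an unadjusted p under 0.05 and DESeq2 called 8 (0.0558%). No member was called by edgeR. *Eno1*, *Eno1b* and *Idh3g* had an unadjusted p under 0.05, and DESeq2 called *Eno1b*. Both Tas1r3-/- WD libraries lay below both WT WD libraries for 20 of the 36 genes (55.6%) and above them for 3 (8.33%), where the shares over all genes tested were 19% and 20.6%. The mean was lower in Tas1r3-/- WD for 30 genes (83.3%, against 51.0% of all genes tested), and the median log2 fold change was -0.12 (all genes -0.01). These differences were small. For 24 of the 36 genes the log2 fold change was within 0.2 of 0, as it was for 50.1% of all genes.

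Without the library labelled WT WD replicate 2, the mean was lower in Tas1r3-/- WD for 23 of the 36 genes (63.9%; all genes 49.7%), down from 30. The criterion of no overlap is then easier to meet, since the WT WD group holds 1 library. Both Tas1r3-/- WD libraries were below the other WT WD library for 22 of the 36 genes (61.1%; all genes 37.4%) and above it for 8 (22.2%; all genes 37.6%). The median log2 fold change was -0.09 in that fit and -0.18 without WT WD replicate 1. With 1 library in a group, edgeR takes the spread from the other group, so the lone library is assumed to vary as those do. On that assumption edgeR called 32 of 14714 genes (0.217%) without WT WD replicate 2, among them *Eno1* and *Eno1b*, and 2122 of 14841 (14.3%) without WT WD replicate 1, among them *Eno1*, *Eno1b* and *Ldhb*. The summed level of all 36 was 13715, 15251, 12090 and 13085 CPM. The library labelled WT WD replicate 2 was above WT WD replicate 1 in 25 of the 36 genes (69.4%, against 49.2% of all genes tested). The part of its tissue make-up in these values was not tested.

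**Figure D2:**
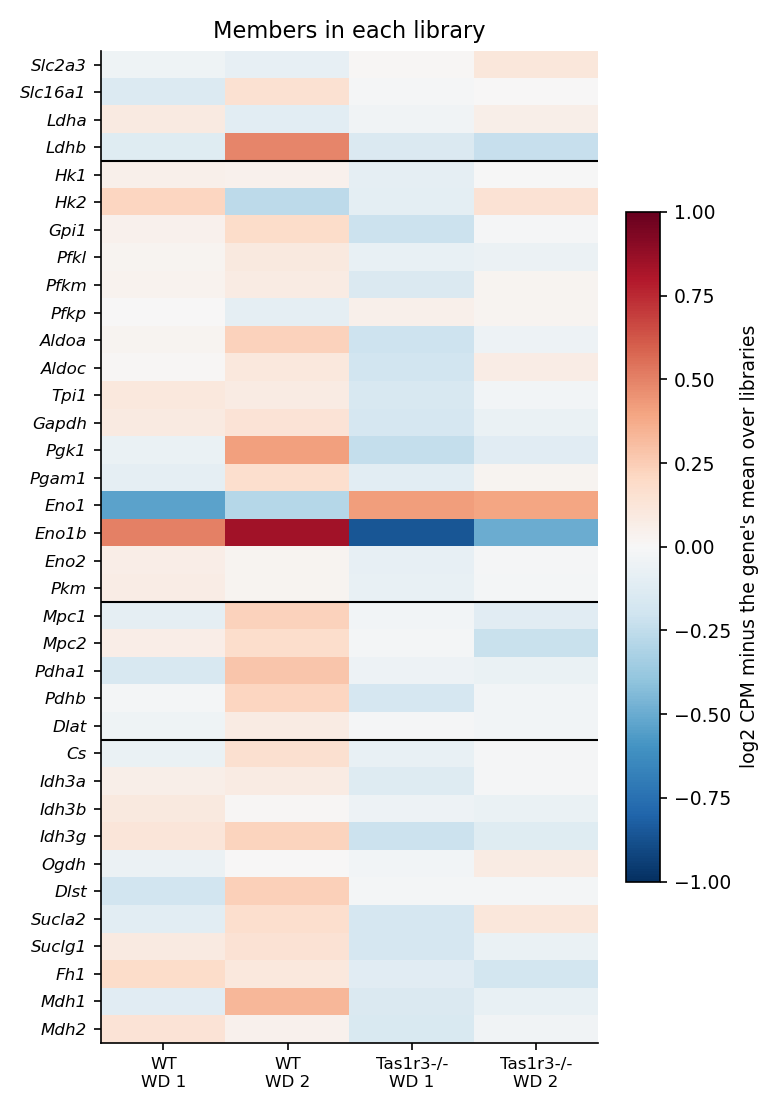
Each of the 36 genes (rows, grouped by step from glucose transport and lactate at the top through glycolysis and pyruvate entry to the TCA cycle) in each library (columns); color is log2 CPM minus the gene's mean over the 4 libraries. Eno1 and Eno1b stand out with opposite colors, and WT WD replicate 2 is the highest library for many members, among them Ldhb, Pgk1, Pdha1, Dlst and Mdh1.

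The enolases held the largest difference in each direction. *Eno1* encodes the enolase found in most tissues and lies at chr4:150321073-150337027 on the plus strand of GRCm39, 5.61 Mb from *Tas1r3*. Its estimated counts were 1504, 1859, 3111 and 2805, which is 258, 306, 500 and 492 CPM. Both Tas1r3-/- WD libraries were above both WT WD libraries, with means of 282 ± 33.9 CPM in WT WD and 496 ± 5.62 CPM in Tas1r3-/- WD (SD, n = 2). The level was 1.76-fold higher, a log2 fold change of 0.81 (SE 0.14, adjusted p = 0.756 by edgeR's quasi-likelihood test, unadjusted p = 0.0027). Leaving out WT WD replicate 2 gave 0.94, leaving out WT WD replicate 1 gave 0.70, and no other member lies on chromosome 4.

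*Eno1b* lies at chr18:48178402-48181479 on the plus strand of GRCm39, has 2 exons where *Eno1* has 12, and is annotated by GENCODE as a retrogene. Its estimated counts were 6829, 8994, 2845 and 3341, or 1173, 1482, 457 and 586 CPM. Here both Tas1r3-/- WD libraries were below both WT WD libraries, and the means were 1327 ± 218 and 521 ± 91.1 CPM (SD, n = 2). The level was 2.55-fold lower, a log2 fold change of -1.35 (SE 0.20, adjusted p = 0.756 by edgeR's quasi-likelihood test, unadjusted p = 0.00126). DESeq2 gave the same value, -1.35, with an adjusted p of 8.40e-05, and *Eno1* had an adjusted p of 0.0802 by DESeq2. Without WT WD replicate 2 the log2 fold change of *Eno1b* was -1.17.

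Together *Eno1* and *Eno1b* had 8332, 10852, 5957 and 6146 estimated counts, or 1432, 1788, 957 and 1078 CPM. The sum was lower in both Tas1r3-/- WD libraries too, by a log2 fold change of -0.66 (SE 0.17, adjusted p = 0.757 by edgeR's quasi-likelihood test). It does not depend on how reads were divided between *Eno1* and *Eno1b*, provided that reads matching both were kept. Whether such reads were kept is not given in the sources used here. Reads shared with matching places elsewhere in the genome could still affect the sum. For the sum, leaving out WT WD replicate 2 gave -0.49 and leaving out WT WD replicate 1 gave -0.81. *Eno1b* made up 82.0% and 82.9% of the pair's estimated counts in the WT WD libraries, and 47.8% and 54.4% in the Tas1r3-/- WD libraries. The shares did not overlap. Their means differed by -31.4 percentage points (82.4% ± 0.651 and 51.1% ± 4.66, SD, n = 2; two-sided exact permutation p = 0.333, the smallest that 2 against 2 libraries allow), or by -30.9 points without WT WD replicate 2. Per kilobase of transcript, the WT WD mean level of *Eno1b* was 741 CPM and that of *Eno1* 123 CPM, and in Tas1r3-/- WD they were 291 and 216 CPM.

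*Eno2*, which neurons express, lies at chr6:124736247-124746636 on the minus strand of GRCm39 and had no match elsewhere in the genome by the count above. It had 6320, 6422, 6089 and 5868 estimated counts, or 1086, 1058, 978 and 1029 CPM. Its libraries differed little, although both of Tas1r3-/- WD were the lower ones (log2 fold change -0.09, SE 0.12, adjusted p = 0.847 by edgeR's quasi-likelihood test) and -0.11 without WT WD replicate 2. All 3 enolase genes together were at 2517, 2847, 1935 and 2106 CPM, so that the summed level was also lower in both Tas1r3-/- WD libraries.

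**Figure D3:**
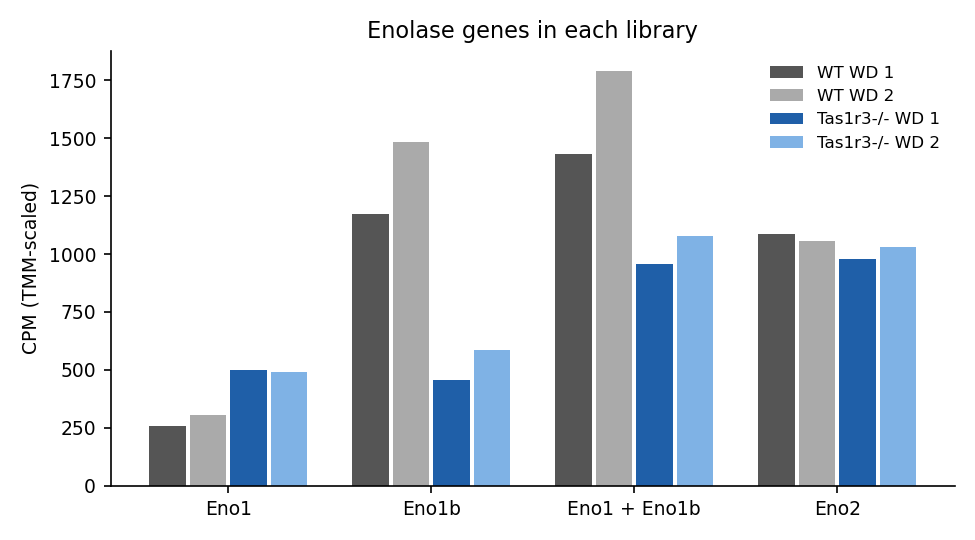
CPM scaled by TMM factors (vertical axis) of Eno1, Eno1b, their sum and Eno2; each bar is 1 library. Eno1 is higher in both Tas1r3-/- WD libraries (500 and 492 against 258 and 306 CPM), Eno1b and the sum are lower, and Eno2 is between 978 and 1086 CPM in all 4.

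The 3 transcripts of *Eno1* had unlike estimated log2 fold changes, and differences between these transcripts were not tested. Their estimates also carry the uncertainty of the split between *Eno1* and *Eno1b*. NM_023119 had 721, 998, 1340 and 1312 estimated counts, a log2 fold change of 0.62 (SE 0.19). NM_001379127 had 742, 822, 1539 and 1351 estimated counts (0.87, SE 0.14). NM_001379128, the least abundant, had 40.0, 38.9, 233 and 142 estimated counts (2.22, SE 0.34), which was 2.66% and 2.09% of the gene's estimate for WT WD and 7.48% and 5.07% for Tas1r3-/- WD. All 3 were above both WT WD libraries in both Tas1r3-/- WD libraries. *Eno1b* was quantified as the single transcript NM_001025388. Each of these 4 transcripts had an adjusted p of 0.939 over the 25699 transcripts tested by edgeR's quasi-likelihood test, and DESeq2 gave 0.0430 for NM_001379128 and 6.32e-04 for NM_001025388. Without WT WD replicate 2 the log2 fold changes were 0.83 for NM_023119, 0.91 for NM_001379127, 2.17 for NM_001379128 and -1.18 for NM_001025388. In that fit the adjusted p was 0.688 for all 4 by edgeR's quasi-likelihood test, and it called no transcript.

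*Eno2* was divided among 3 transcripts in similar proportions in all libraries. NM_013509 took 65.1% to 67.8% of the gene's estimate, NM_001302642 18.1% to 21.0% and NM_001355220 the remainder. Their log2 fold changes were -0.13 (SE 0.13), 0.01 (SE 0.16) and -0.16 (SE 0.18), and without WT WD replicate 2 they were -0.16, -0.08 and -0.04. Of the 78 transcripts of the 36 genes, 74 were tested and 5 had an unadjusted p under 0.05, beside 1179 of the 25699 transcripts (4.59%). *Ldhb* and *Mdh1* each had 2 transcripts with identical estimates in every library, so for these the division between transcripts carries no information.

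**Figure D4:**
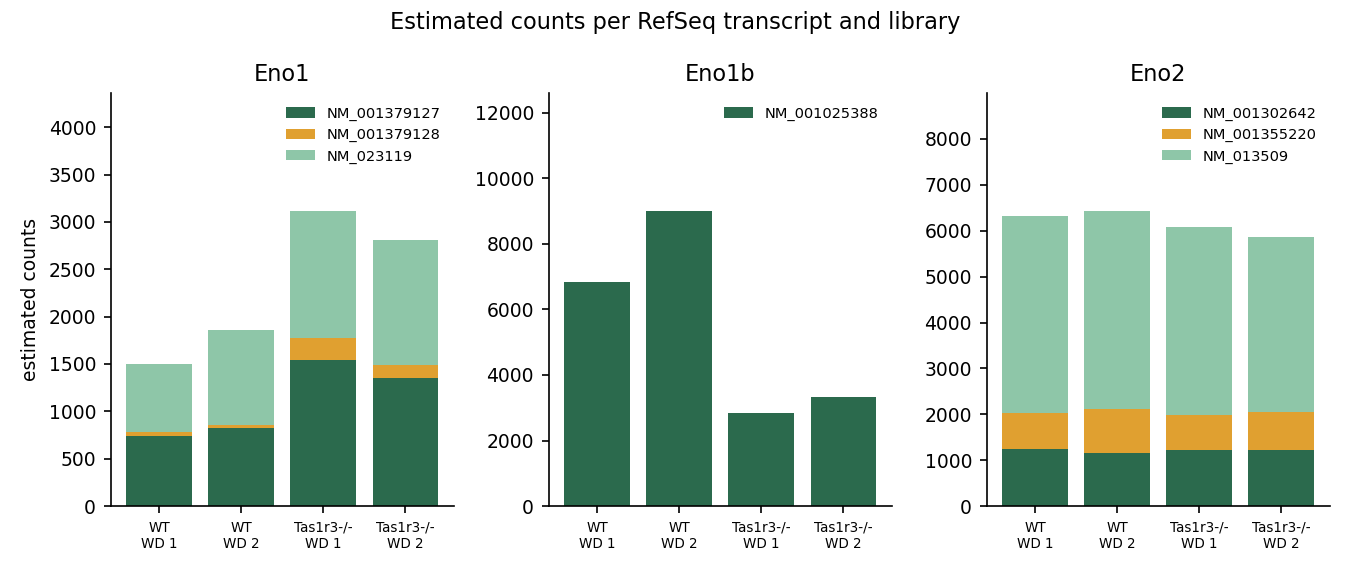
Estimated counts (vertical axis, a separate scale for each gene) of the RefSeq transcripts of Eno1, Eno1b and Eno2, stacked for each library. The 3 Eno1 transcripts are all higher in Tas1r3-/- WD, NM_001025388 of Eno1b is at 6829 and 8994 in WT WD, 2845 and 3341 in Tas1r3-/- WD, and the Eno2 transcripts keep their proportions.

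Genes of glucose transport and lactate exchange showed no common direction. Their median log2 fold change was -0.00, and 0.02 without WT WD replicate 2. *Slc2a3*, the neuronal glucose transporter GLUT3, was at 113, 110, 118 and 126 CPM, slightly higher in both Tas1r3-/- WD libraries (0.13, SE 0.12). *Slc16a1*, the monocarboxylate transporter MCT1, was at 47.1, 57.5, 51.4 and 51.9 CPM with overlapping groups. *Ldha*, the lactate dehydrogenase subunit favored in glycolytic tissue, was at 220, 192, 201 and 215 CPM, and its groups overlapped (0.01, SE 0.14). *Ldhb*, the subunit of oxidative tissue, was at 441, 672, 434 and 408 CPM. For *Ldhb* the library labelled WT WD replicate 2 stood apart, and the log2 fold change of -0.40 (SE 0.23) became -0.07 without it. Without the same library the values were 0.11 for *Slc2a3*, 0.13 for *Slc16a1* and -0.08 for *Ldha*.

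The first steps of glycolysis prime glucose and commit it to the pathway. Of their genes, *Hk1*, *Gpi1*, *Pfkm* and *Pfkl* had both Tas1r3-/- WD libraries below both WT WD libraries. *Hk1*, the main hexokinase of brain, was at 376, 375, 341 and 363 CPM (-0.09, SE 0.12), with both Tas1r3-/- WD libraries the lower ones. *Hk2*, the insulin-responsive hexokinase of muscle and fat, was between 5.44 and 7.56 CPM in all libraries. *Gpi1*, which converts glucose 6-phosphate to fructose 6-phosphate, was at 590, 651, 495 and 567 CPM (-0.23, SE 0.14). Of the phosphofructokinases, which catalyze the committed step, *Pfkm* (muscle type) was at 443, 458, 392 and 442 CPM (-0.11, SE 0.13). *Pfkl* (liver type) was at 158, 165, 147 and 148 CPM (-0.13, SE 0.12). *Pfkp* (platelet type) was at 176, 164, 181 and 178 CPM (0.08, SE 0.13), the only one of the 3 with both Tas1r3-/- WD libraries above both WT WD libraries. Without WT WD replicate 2 the log2 fold changes were -0.10 for *Hk1*, -0.19 for *Hk2*, -0.15 for *Gpi1*, -0.09 for *Pfkm*, -0.10 for *Pfkl* and 0.03 for *Pfkp*.

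Aldolase and triose phosphate isomerase, which split the sugar and interconvert its products, were lower in mean in Tas1r3-/- WD. *Aldoa*, the aldolase of muscle and most cells, was at 1681, 1940, 1433 and 1591 CPM (-0.26, SE 0.15; -0.15 without WT WD replicate 2), and both Tas1r3-/- WD libraries were the lower ones. Per kilobase of transcript it had the highest level of the 36 genes, at 1198 CPM in WT WD and 1001 CPM in Tas1r3-/- WD. The levels of genes with long copies elsewhere, such as *Gapdh*, are uncertain, and so is this rank. *Aldoc*, the aldolase of astrocytes, was at 1213, 1292, 1051 and 1264 CPM, and its groups overlapped (-0.11, SE 0.15; -0.07 without WT WD replicate 2). *Tpi1*, the isomerase, was at 521, 514, 434 and 476 CPM (-0.19, SE 0.13; -0.20 without WT WD replicate 2).

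The later steps, which yield ATP and NADH, had the same direction, with *Eno1* as the exception. *Gapdh* was at 274, 283, 229 and 245 CPM, both Tas1r3-/- WD libraries being lower (-0.23, SE 0.13; -0.21 without WT WD replicate 2). Its 2 transcripts went opposite ways, at 1364, 1436, 1109 and 1044 estimated counts for NM_001289726 and 231, 280, 317 and 355 for NM_008084. *Pgk1*, phosphoglycerate kinase, was at 228, 317, 202 and 220 CPM, and its log2 fold change of -0.37 (SE 0.20) was -0.11 without WT WD replicate 2. *Pgam1*, phosphoglycerate mutase, was at 590, 704, 585 and 641 CPM, with overlapping groups (-0.08, SE 0.15; 0.06 without WT WD replicate 2). *Pkm*, the pyruvate kinase of brain and muscle, was at 1283, 1243, 1161 and 1204 CPM, with both Tas1r3-/- WD libraries lower by a small amount (-0.10, SE 0.12; -0.12 without WT WD replicate 2). Over the 16 glycolysis genes, 11 had both Tas1r3-/- WD libraries below both WT WD libraries (68.8%, against 19% of all genes tested) and 2 above them (12.5%, against 20.6%), namely *Eno1* and *Pfkp*. With WT WD replicate 2 omitted, 12 were below and 2 above the other WT WD library (75% and 12.5%, against 37.4% and 37.6% of all genes). The median log2 fold change was -0.11 with all libraries and without WT WD replicate 2, -0.06 without Tas1r3-/- WD replicate 1 and -0.18 without Tas1r3-/- WD replicate 2.

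**Figure D5:**
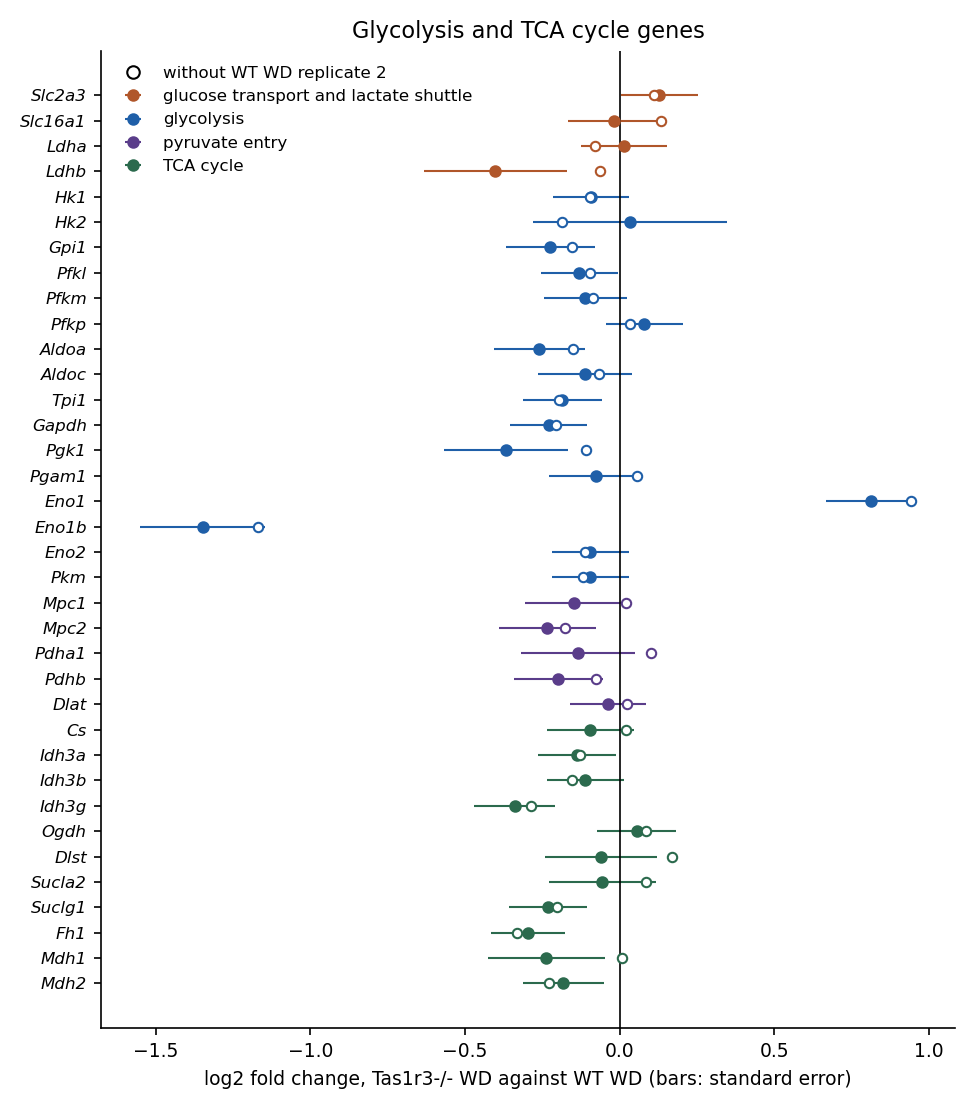
Log2 fold change of Tas1r3-/- WD against WT WD for the 36 genes (filled points, bars are 1 standard error), colored by step; open points are the values without WT WD replicate 2. Eno1 (0.81) and Eno1b (-1.35) lie far from the other 34, which are between -0.40 and 0.13, and the open points of Ldhb, Pgk1, Pdha1, Dlst and Mdh1 lie closer to 0 or above it.

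The genes that bring pyruvate into mitochondria and turn it to acetyl-CoA had a median log2 fold change of -0.15, which became 0.02 on omitting WT WD replicate 2 and -0.29 on omitting WT WD replicate 1. The mean was lower in Tas1r3-/- WD for all 5 with every library in, and for 2 of 5 without WT WD replicate 2. The mitochondrial pyruvate carrier subunits *Mpc1* and *Mpc2* were at 47.4, 59.1, 49.5 and 46.6 CPM and at 33.3, 35.9, 31.5 and 27.4 CPM. Groups overlapped for *Mpc1* and not for *Mpc2* (-0.23, SE 0.16). *Pdha1*, the catalytic alpha subunit of pyruvate dehydrogenase, was at 173, 235, 187 and 184 CPM, so that a single WT WD library was the high one (-0.14, SE 0.18; 0.10 without it). *Pdhb*, the beta subunit, was at 65.8, 77.3, 59.4 and 65.2 CPM (-0.20, SE 0.14; -0.08 without WT WD replicate 2). *Dlat*, the acetyltransferase of the complex, was at 86.1, 93.6, 87.7 and 87.1 CPM. Without WT WD replicate 2 the values were 0.02 for *Mpc1*, -0.18 for *Mpc2* and 0.02 for *Dlat*.

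In the TCA cycle 10 of 11 genes had a lower mean in Tas1r3-/- WD, where 51.0% of all genes tested did, and 6 of 11 (54.5%, against 19%) had both Tas1r3-/- WD libraries below both WT WD libraries. When WT WD replicate 2 was omitted, the mean was lower for 6 of 11 genes, against 49.7% of all genes. Both Tas1r3-/- WD libraries were then below the other WT WD library for 6 genes (54.5%, against 37.4% of all genes). They were above it for 2 (18.2%, against 37.6%). The median log2 fold change was -0.14, with -0.13 on leaving out WT WD replicate 2 and -0.21 on leaving out Tas1r3-/- WD replicate 2. The 3 subunits of the NAD-dependent isocitrate dehydrogenase, a regulated enzyme of the cycle, were all lower in both Tas1r3-/- WD libraries. *Idh3g*, a regulatory subunit, was at 144, 155, 114 and 122 CPM (-0.34, SE 0.13; unadjusted p = 0.0477, adjusted p = 0.756 by edgeR's quasi-likelihood test) and at -0.29 without WT WD replicate 2. *Idh3a*, the catalytic subunit, was at 177, 179, 156 and 168 CPM (-0.14, SE 0.13), and *Idh3b* at 165, 155, 149 and 147 CPM (-0.11, SE 0.12), and their values without WT WD replicate 2 were -0.13 and -0.16.

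*Fh1*, fumarate hydratase, was at 88.5, 83.9, 71.8 and 68.6 CPM, with a log2 fold change of -0.30 (SE 0.12) and of -0.33 without WT WD replicate 2. *Suclg1*, the alpha subunit of succinyl-CoA ligase, was at 125, 130, 105 and 113 CPM (-0.23, SE 0.13; -0.20 without WT WD replicate 2). *Mdh2*, the mitochondrial malate dehydrogenase, was at 255, 239, 209 and 227 CPM (-0.18, SE 0.13; -0.23 without WT WD replicate 2). In each of these 3 genes both Tas1r3-/- WD libraries were below both WT WD libraries.

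The other 5 genes of the cycle had overlapping groups. *Cs*, citrate synthase, was at 282, 330, 280 and 293 CPM (-0.09, SE 0.14). *Ogdh*, the first subunit of 2-oxoglutarate dehydrogenase, was at 381, 397, 388 and 420 CPM (0.05, SE 0.13), the only gene of the cycle with a higher mean in Tas1r3-/- WD. *Dlst*, the second subunit of that complex, was at 99.8, 134, 112 and 112 CPM, and *Sucla2*, the ATP-specific beta subunit of succinyl-CoA ligase, at 103, 125, 99.0 and 120 CPM. *Mdh1*, the cytosolic malate dehydrogenase of the malate-aspartate shuttle, was at 609, 832, 596 and 627 CPM. The log2 fold change of *Mdh1* was -0.24 (SE 0.19) with all libraries and 0.01 without WT WD replicate 2, the highest one. On leaving out that library the values were 0.02 for *Cs*, 0.08 for *Ogdh*, 0.17 for *Dlst* and 0.09 for *Sucla2*.

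Further genes of the same pathways were read from a list of 54 isozymes, regulators and shuttle genes, of which 49 were tested and the others were not analysed here. Of the 49, 10 had both Tas1r3-/- WD libraries above both WT WD libraries (20.4%, against 20.6% of all genes tested) and 14 below them (28.6%, against 19%). No gene was called by edgeR. The median log2 fold change was -0.10, and -0.01 without WT WD replicate 2. With that library omitted, both Tas1r3-/- WD libraries were below the other WT WD library for 22 genes (44.9%, against 37.4% of all genes). They were above it for 16 (32.7%, against 37.6%). An unadjusted p under 0.05 was found for 3 genes (6.12%), near the 5.38% of all genes tested. *Pdk4*, a kinase that inactivates pyruvate dehydrogenase, was at 5.50, 8.40, 10.9 and 17.4 CPM, higher in both Tas1r3-/- WD libraries (1.02, SE 0.36). *Pdpr*, the regulatory subunit of the phosphatase that reactivates it, was at 12.7, 9.06, 17.7 and 16.7 CPM, also higher in both (0.66, SE 0.24). *Idh2*, the NADP-dependent mitochondrial isocitrate dehydrogenase, was at 74.9, 75.6, 54.1 and 61.0 CPM, lower in both (-0.39, SE 0.13). Without WT WD replicate 2 the values were 1.35, 0.43 and -0.38. Each had an adjusted p of 0.756 by edgeR's quasi-likelihood test.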

How the data were processed

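Estimated counts of RefSeq transcripts in each library, not normalized, were deposited by the authors, who had mapped the Ion Torrent reads with STAR on mm39 inside Partek Flow. The methods give 3 mice per group for sequencing, and the 2 libraries per group listed by the labels were analysed here. Between 10.8% and 14.7% of the values of a library were whole numbers. The design foresaw that transcripts might need summing, and the 30891 transcripts with a gene symbol (of 30930) were summed to 16339 genes and rounded to whole counts. The other 39, 0.347% to 2.49% of a library, were left out. Each single-sample table held the same values as its column in the joint table.

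Groups were compared with edgeR 4.0.16 (quasi-likelihood test, TMM, filterByExpr, Benjamini-Hochberg over 14344 genes; R 4.3.3). DESeq2 1.42.0, limma-trend (limma 3.58.1), other scalings and filters, the replicate block and each library left out were alternatives. Added after seeing the data were the tests, though not the values, with 1 library in a group, DESeq2 on transcripts, and the omission of WT WD replicate 2 for transcripts and further pathway genes. CPM used TMM factors. SE is the log2 fold change divided by the square root of edgeR's F. The test was checked on simulated data. Positions, lengths (GENCODE canonical transcript) and sequences are from GRCm39.

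All 36 genes are named, with every library's value for the enolases and the main isozyme of each step. Of the further pathway genes, those with an unadjusted p under 0.05 are named. The genes and lists were chosen with earlier results of these data known.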

Additional observations from a re-analysis of the deposited data

How the results depend on the processing

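With all 4 libraries, no member changed direction under RLE size factors, library totals, DESeq2, limma-trend, either filter or the replicate block, although the *Eno2* transcript NM_001302642 taken in place of its gene gave 0.00867. Calls depended on the test. DESeq2 called 8 genes, 1 member (*Eno1b*, -1.35) and, over transcripts, 7, where edgeR called 0. With the replicate block edgeR also called 0 genes and gave -0.66 for the enolase pair. Whether the replicate numbers pair the samples is not known. The deviations of same-numbered libraries correlated at 0.0821. This cannot decide it, since the library labelled WT WD replicate 2 went against its tissue label. Leaving out a library gave 0 to 2122 called genes (32 without WT WD replicate 2), 0 to 3 called members, 3 to 8 members above, 21 to 30 below, and log2 fold changes of 0.70 to 0.94 for *Eno1*, -1.54 to -1.17 for *Eno1b* and -0.81 to -0.49 for the pair. Without 1 library 13 of 36 members turned direction, with ranges of -0.15 to 0.13 (*Slc16a1*), -0.0790 to 0.12 (*Ldha*), -0.19 to 0.29 (*Hk2*), -0.26 to 0.0129 (*Aldoc*), -0.19 to 0.0553 (*Pgam1*), -0.29 to 0.0206 (*Mpc1*), -0.33 to 0.10 (*Pdha1*), -0.0924 to 0.0232 (*Dlat*), -0.20 to 0.0210 (*Cs*), -0.0104 to 0.11 (*Ogdh*), -0.25 to 0.17 (*Dlst*), -0.21 to 0.0855 (*Sucla2*) and -0.44 to 0.00554 (*Mdh1*). The cause was not tested.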
